A study of Homo sapiens with 14 samples.

Results

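The 41 genes described here are the glucose transporters, glycolytic enzymes, lactate transporters and pyruvate dehydrogenase kinases together with the hypoxia-inducible factor (HIF) subunits, their oxygen sensors and other HIF targets. They were chosen by gene name out of 24461 named genes, with earlier results of these data known. All 41 were listed in both expression tables, and 40 passed the filter on low values in each comparison. They were read in U251MG, an established human glioblastoma cell line, with 3 RNA-seq libraries in each of 4 groups. The first comparison set radioresistant cells, which had received 30 X-ray fractions of 2 Gy (60 Gy in all), against control cells of the same line. The second set radioresistant cells carrying a hairpin against IFI16 (shIFI16) against radioresistant cells carrying the hairpin labelled shNC. The cells of both hairpin groups had thus been irradiated in the same way, and the labels give the genotype of all 4 groups as WT. The labels name 1 hairpin against IFI16 and give no oxygen level, and they do not say whether replicates were separate cultures, so a p-value covers only how far these libraries scatter, which may be technical. ATAC-seq, which marks open chromatin, was done on 1 radioresistant and 1 control library.

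Glycolysis splits glucose into pyruvate, which is either reduced to lactate and exported or passed into the mitochondrion through pyruvate dehydrogenase. HIF is a transcription factor whose alpha subunits are marked for destruction by prolyl hydroxylases when oxygen is present. When oxygen falls, HIF turns on glucose transporters, glycolytic enzymes, kinases that block pyruvate dehydrogenase, and genes of acid balance, vessel growth and mitochondrial clearance. Glioblastomas are known for a strong use of glycolysis and for hypoxic zones around necrosis.

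Expression was given in TPM (transcripts per 1000000), a unit scaled to transcript length, so levels of different genes can be set side by side within a table. TPM holds no sequencing depth, and between 12361 and 13016 genes reached 1 TPM in a library. Libraries of a group correlated with Pearson's r of 0.975 to 0.993 across tested genes, and control replicate 3 stood lowest with 0.975 and 0.984. IFI16 itself had 250.8, 309 and 243 TPM in radioresistant cells, against 70.3, 71.1 and 49.6 TPM in control cells. In the hairpin table IFI16 had 7.68, 7.90 and 6.71 TPM in shIFI16 cells, against 125, 140 and 127 TPM in shNC cells. Glioma and astrocyte markers stood at very different levels. VIM averaged 5640 TPM in radioresistant and 8822 TPM in control cells, and 4649 TPM in shIFI16 and 6526 TPM in shNC cells. S100B averaged 0.68 TPM in shIFI16 and 0.22 TPM in shNC cells and was not tested there. GFAP, the astrocyte filament, averaged 80.6 TPM in radioresistant cells and 4011 TPM in control cells, and all 8 glioma and astrocyte markers were lower in radioresistant cells. After knockdown 3 of 7 tested were higher and 2 lower, with GFAP at 31.1 TPM in shIFI16 and 1.73 TPM in shNC cells. The immune markers AIF1 and CD3E were listed at 0 in all 12 libraries, and PTPRC, PECAM1 and EPCAM stayed under 0.2 TPM. Other markers of such cell types were expressed. CLDN4 (epithelial) averaged 2.62 TPM in shIFI16 and 4.02 TPM in shNC cells, and SYT1 (neuronal) 10.6 and 18.1 TPM. Both were lower in shIFI16 cells, while KRT14, GAD1 and KDR reached 1 TPM in every hairpin library without a call. Of the fibroblast markers, COL1A1 was lower in radioresistant (10.4 TPM) than in control cells (18.9 TPM), and PDGFRB was higher. CDH5, an endothelial marker, averaged 0.67 TPM in radioresistant and 7.57 TPM in control cells and 9.47 TPM in shIFI16 and 3.32 TPM in shNC cells. CD68, a marker of macrophages, averaged 15.6 TPM in shIFI16 and 38.5 TPM in shNC cells. The part of these marker shifts in the results was not tested.

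In radioresistant cells the 41 genes split, with 6 of 40 tested members higher and 13 lower than in control cells. BNIP3L, a receptor for mitochondrial clearance, fell most (log2 change -1.51), followed by MXI1, an antagonist of MYC (-1.28), and PDK1, which blocks pyruvate dehydrogenase (-0.99). EPAS1, the alpha subunit of HIF-2, rose most (1.08), followed by VEGFA, the growth factor of vessels (0.72). Among all genes tested, 43.9% changed, 16.9% higher and 27.0% lower, so the members' shares of 15% higher and 32.5% lower lay near those of all genes. The libraries of the groups did not overlap for 25 of 40 members, 8 higher and 17 lower, beside 53.1% of all genes, 21.5% higher and 31.7% lower. The median log2 change of the members was -0.12, beside -0.11 over all genes tested. Without radioresistant replicate 1, 3 members were higher in place of 6, 2 of them among the HIF subunits, sensors and other targets. Of all genes, 1575 were higher without that library, in place of 2220. Fewer cells of a kind and less RNA per cell cannot be told apart in such bulk libraries.

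After IFI16 knockdown 18 of 40 tested members were higher and 3 were lower in shIFI16 than in shNC cells. EGLN3, an oxygen-sensing prolyl hydroxylase that is itself a HIF target, rose most (1.16), followed by NDRG1 (0.84), BNIP3L (0.77) and BNIP3 (0.74). P4HA1 and P4HA2, which hydroxylate prolines of collagen, and LDHA, the lactate-forming dehydrogenase subunit, fell. Among all genes tested, 32.9% changed, 16.6% higher and 16.3% lower, beside 45% of tested members higher and 7.5% lower. Groups did not overlap for 29 of 40 members, 24 higher and 5 lower, beside 44.8% of all genes, 23.4% higher and 21.4% lower. The members' median log2 change was 0.18 (0.03 over all genes tested). For the 16 HIF subunits, sensors and other targets alone it was 0.40, with 9 higher and 2 lower. The plot of the changes of all members shows both comparisons gene by gene.

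**Figure D1:**
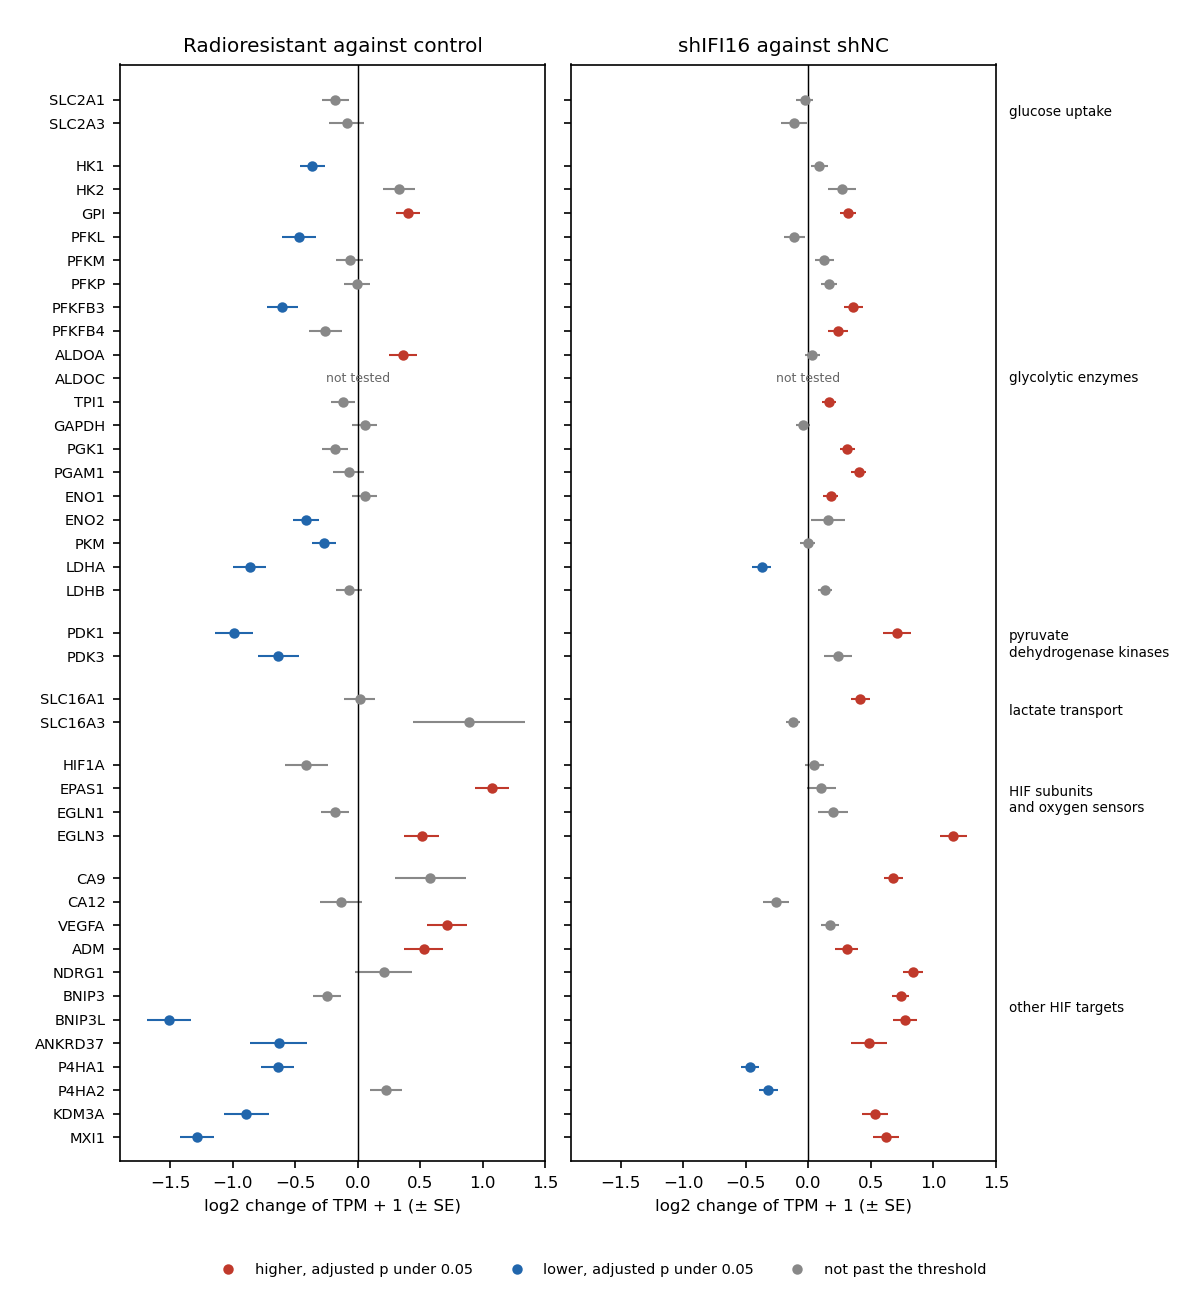
Log2 change of TPM + 1 with its standard error for each of the 41 members by role, radioresistant against control (left) and shIFI16 against shNC (right), from fits on 3 libraries a group. Red points are higher and blue points lower past the threshold, 6 and 13 on the left and 18 and 3 on the right, and ALDOC was not tested.

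The stretches before the start sites of MXI1, EGLN3, EPAS1, PDK1 and KDM3A are shown because these genes had the largest changes past the threshold in either comparison among members with a mean of at least 10 TPM and a usable promoter entry. Each line gives the 250 bases before the start, 5′ to 3′ on the gene's own strand, from RefSeq on GRCh38.p14. Capitals mark the core letters of the HIF binding motif, ACGTG or GCGTG, searched on both strands.
MXI1: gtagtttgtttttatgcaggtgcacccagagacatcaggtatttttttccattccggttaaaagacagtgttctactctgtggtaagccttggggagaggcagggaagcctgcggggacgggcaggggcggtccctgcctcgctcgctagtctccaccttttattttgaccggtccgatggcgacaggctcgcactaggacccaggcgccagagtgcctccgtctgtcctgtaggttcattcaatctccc
EGLN3: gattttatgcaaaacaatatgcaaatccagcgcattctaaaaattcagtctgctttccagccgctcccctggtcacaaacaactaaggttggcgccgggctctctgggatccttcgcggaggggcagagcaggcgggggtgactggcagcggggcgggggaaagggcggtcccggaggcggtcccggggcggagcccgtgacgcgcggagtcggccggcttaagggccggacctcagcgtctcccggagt
EPAS1: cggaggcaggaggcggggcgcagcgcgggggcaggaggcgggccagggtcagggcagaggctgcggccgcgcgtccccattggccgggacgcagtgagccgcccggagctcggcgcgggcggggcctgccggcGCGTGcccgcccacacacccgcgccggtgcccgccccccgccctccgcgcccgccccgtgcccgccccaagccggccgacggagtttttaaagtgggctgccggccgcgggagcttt
PDK1: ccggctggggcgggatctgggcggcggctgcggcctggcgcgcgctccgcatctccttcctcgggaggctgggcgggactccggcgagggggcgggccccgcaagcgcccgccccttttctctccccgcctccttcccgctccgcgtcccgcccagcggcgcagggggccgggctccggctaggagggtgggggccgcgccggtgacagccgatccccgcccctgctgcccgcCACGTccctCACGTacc
KDM3A: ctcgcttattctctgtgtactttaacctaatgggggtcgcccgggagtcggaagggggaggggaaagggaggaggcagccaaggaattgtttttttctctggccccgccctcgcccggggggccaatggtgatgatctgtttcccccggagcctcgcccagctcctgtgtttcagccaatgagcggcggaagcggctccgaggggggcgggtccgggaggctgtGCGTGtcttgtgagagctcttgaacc
These windows lie at chr10:110207355-110207604 (plus strand) for MXI1, chr14:33951075-33951324 (minus strand) for EGLN3 and chr2:46297157-46297406 (plus strand) for EPAS1. The windows of PDK1, chr2:172555840-172556089, and of KDM3A, chr2:86441121-86441370, are both on the plus strand. PDK1 is shown at the start nearest to its ATAC-seq summit. Its window held the letters CACGT, which is ACGTG on the other strand, at 17 and at 8 bases before the start. The 250 bases before the first start of PDK1, which the count below uses, held 0 matches. EPAS1 held GCGTG at 117 bases and KDM3A held GCGTG at 26 bases before the start, while the windows of MXI1 and EGLN3 held neither letter run. Counted at the first start of each gene, 23 of the 36 members with an entry (63.9%) held at least 1 match, as did 12 of the 19 glycolytic enzymes (63.2%), beside 57.7% of the 9791 genes tested in the first comparison that have an entry and 43.1% of all 27305 promoters. Without an entry were NDRG1, SLC16A1, SLC2A3, BNIP3L and VEGFA.

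In radioresistant cells the subunits and sensors of the HIF system did not move as one. EPAS1 had 48.4, 45.8 and 37.6 TPM in radioresistant cells, against 19.8, 22.2 and 18.8 TPM in control cells. All radioresistant libraries lay above all control libraries, and the log2 change was 1.08 ± 0.14 (SE, limma adjusted p = 1.3e-04). HIF1A, the alpha subunit of HIF-1, had 493, 573 and 406 TPM in radioresistant cells, against 747, 721 and 500 TPM in control cells. Its groups overlapped, since radioresistant replicate 2 stood above control replicate 3. The log2 change of HIF1A was -0.41 (adjusted p = 0.076), and without control replicate 3 it was -0.59 (adjusted p = 7.6e-04), while without radioresistant replicate 2 it was -0.53 (adjusted p = 0.042). As a share of the summed TPM of HIF1A and EPAS1, EPAS1 made up 8.28 ± 0.79% in radioresistant cells and 3.06 ± 0.52% in control cells (SD, n = 3 each). HIF1A thus remained the more abundant transcript in every library.

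EGLN3 had 22.2, 24.1 and 18.1 TPM in radioresistant cells, against 14.8, 15.6 and 13.7 TPM in control cells. It rose by a log2 change of 0.51 (adjusted p = 0.013), with groups that did not overlap; the adjusted p was 0.051 without radioresistant replicate 1 and 0.056 without radioresistant replicate 2. EGLN1, the main oxygen sensor of most cells, averaged 30.8 ± 1.5 TPM in radioresistant and 35.1 ± 1.3 TPM in control cells (SD, n = 3 each), a log2 difference of -0.18 that did not pass (adjusted p = 0.21).

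Targets of HIF went both ways in radioresistant cells, with 2 of 12 higher (16.7%) and 5 lower (41.7%). Among all genes 16.9% were higher and 27.0% lower. BNIP3L had 46.4, 47.9 and 29.0 TPM in radioresistant cells, against 125, 117 and 107 TPM in control cells. Every radioresistant library lay well under every control library, and the mean was 2.83-fold lower (log2 change -1.51 ± 0.18 SE, adjusted p = 8.0e-05). MXI1 had 6.81, 7.50 and 5.96 TPM in radioresistant cells, against 18.5, 18.2 and 16.9 TPM in control cells. The groups were far apart and tight, at a log2 change of -1.28 ± 0.13 (SE, adjusted p = 3.5e-05). KDM3A, a histone demethylase, had 17.3, 20.0 and 14.03 TPM in radioresistant cells, against 37.3, 35.6 and 25.2 TPM in control cells, with control replicate 3 the lowest of its group. KDM3A fell by 0.89 on the log2 scale (adjusted p = 0.0024) and its groups did not overlap. P4HA1 had 73.6, 81.5 and 62.7 TPM in radioresistant cells, against 121, 119 and 100 TPM in control cells, and fell by 0.64 (adjusted p = 0.0026). ANKRD37, an ankyrin-repeat gene, had 6.82, 6.73 and 3.94 TPM in radioresistant cells, against 11.6, 10.5 and 6.63 TPM in control cells. Its groups overlapped, and its log2 change of -0.63 (adjusted p = 0.046) lost its call without radioresistant replicate 3 (adjusted p = 0.19), control replicate 1 (0.13) or control replicate 2 (0.14). Median-ratio scaling (0.079), quantile normalization (0.077) and no low-value filter (0.11) also ended that call. So did a pseudocount of 0.1 (0.051) and limma without trend and robust moderation (0.056), so it held under 5 of 13 alternatives.

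VEGFA had 131, 103 and 82.2 TPM in radioresistant cells, against 58.8, 69.5 and 60.3 TPM in control cells. It rose by 0.72 ± 0.16 (log2 change and SE, adjusted p = 0.0047), with groups that did not overlap. ADM, the vasodilator peptide adrenomedullin, had 27.5, 21.1 and 28.6 TPM in radioresistant cells, against 17.1, 20.1 and 15.4 TPM in control cells. Its log2 change was 0.53 (adjusted p = 0.018), and the call was lost without radioresistant replicate 1 (adjusted p = 0.069) or radioresistant replicate 3 (0.082). CA9, which handles acid at the cell surface, had 31.0, 25.3 and 13.7 TPM in radioresistant cells, against 11.2, 14.3 and 18.7 TPM in control cells. The CA9 groups overlapped through radioresistant replicate 3, and the log2 difference of 0.58 (adjusted p = 0.13) was 0.91 (adjusted p = 0.012) without that library. NDRG1, a gene of the stress response, ran likewise with 43.1, 32.1 and 19.8 TPM in radioresistant cells, against 25.6, 27.3 and 25.01 TPM in control cells. Its log2 difference of 0.21 (adjusted p = 0.48) was -0.04 without radioresistant replicate 1 and 0.50 (adjusted p = 0.043) without radioresistant replicate 3. BNIP3, a close relative of BNIP3L, averaged 142 ± 8 TPM in radioresistant and 168 ± 15 TPM in control cells (SD, n = 3 each), a log2 difference of -0.24 that did not pass (adjusted p = 0.095) but did without control replicate 3 (-0.32, adjusted p = 0.015). P4HA2 (0.22) did not pass, though it did with median-ratio scaling (0.34, adjusted p = 0.034), nor did CA12 (-0.13), which averaged 0.88 TPM in radioresistant and 1.05 TPM in control cells.

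Of the 19 glycolytic enzymes and regulators, 18 were tested, and in radioresistant cells 2 rose and 6 fell, with a median log2 change of -0.09. These are 11.1% higher and 33.3% lower, beside 16.9% and 27.0% of all genes, whose median was -0.11, so the enzymes lay near all genes. LDHA had 26.7, 26.0 and 22.8 TPM in radioresistant cells, against 53.3, 43.8 and 43.4 TPM in control cells. It fell by 0.86 ± 0.13 (log2 scale and SE, adjusted p = 4.2e-04), with no overlap. PFKFB3, which makes the sugar phosphate that activates phosphofructokinase, had 119, 102 and 88.5 TPM in radioresistant cells, against 148, 152 and 169 TPM in control cells. It fell by 0.60 (adjusted p = 0.0034), again with no overlap. ENO2 fell by 0.41 (adjusted p = 0.0099), PFKL by 0.47 (adjusted p = 0.018), HK1 by 0.36 (adjusted p = 0.015) and PKM, the last step to pyruvate, by 0.27 (adjusted p = 0.046). GPI, the isomerase of the second step, had 509, 511 and 502 TPM in radioresistant cells, against 374, 383 and 394 TPM in control cells, and rose by 0.40 ± 0.09 (log2 change and SE, adjusted p = 0.0060). ALDOA, the main aldolase, had 2561, 2513 and 2408 TPM in radioresistant cells, against 1781, 1876 and 2173 TPM in control cells, a log2 change of 0.36 (adjusted p = 0.021).

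Several of these enzyme calls were lost when 1 library was left out, each of them through more than 1 choice of library. Without radioresistant replicate 2, 4 enzymes were past the threshold in place of 8, and without radioresistant replicate 3 or control replicate 2 there were 5. Of all genes, 4875, 3970 and 3875 were past it without these libraries, in that order, in place of 5762. The enzymes that were lower numbered 3 without radioresistant replicate 2 or 3, beside 3263 and 2476 of all genes in place of 3542. The ALDOA call was lost without radioresistant replicate 1 (adjusted p = 0.067), radioresistant replicate 2 (0.058), control replicate 1 (0.085) or control replicate 2 (0.096). PFKL lost its call without radioresistant replicate 2 (adjusted p = 0.055) or radioresistant replicate 3 (0.086), and HK1 lost it without radioresistant replicate 2 (0.053), radioresistant replicate 3 (0.070) or control replicate 2 (0.071). PKM lost it without any 1 library other than control replicate 3, with adjusted p up to 0.17. Scaling by median ratios, which puts the median of all genes at 0.00 in place of -0.11, also ended the calls of HK1 (adjusted p = 0.087), PFKL (0.097) and PKM (0.26) and left 3 enzymes lower.

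The other enzymes did not pass. HK2 averaged 12.5 ± 0.6 TPM in radioresistant and 9.79 ± 0.73 TPM in control cells (log2 difference 0.33, adjusted p = 0.057), and it passed with median-ratio scaling (0.44, adjusted p = 0.0071). PFKFB4 (-0.26) and PGK1 (-0.18) lay below 0, and GAPDH and ENO1 (0.06 each) lay close to 0 with a sign that turned under quantile normalization. TPI1 (-0.11), PGAM1 (-0.07), LDHB (-0.07), PFKM (-0.06) and PFKP (0.00) did not pass, and median-ratio scaling gave each of them a value above 0. ALDOC was not tested, with 0.56, 0.35 and 0.89 TPM in radioresistant cells, against 0.80, 1.04 and 1.15 TPM in control cells.

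At the ends of the pathway, both pyruvate dehydrogenase kinases fell in radioresistant cells. PDK1 had 7.82, 7.80 and 6.27 TPM in radioresistant cells, against 16.5, 17.0 and 13.0 TPM in control cells. It was 2.12-fold lower in the mean (log2 change -0.99 ± 0.15 SE, adjusted p = 4.8e-04), and the groups did not overlap. PDK3 averaged 12.04 ± 1.89 TPM in radioresistant and 19.3 ± 3.2 TPM in control cells (SD, n = 3 each), and fell by 0.63 (adjusted p = 0.0093). The glucose transporters SLC2A1 (log2 difference -0.18, adjusted p = 0.20) and SLC2A3 (-0.09, adjusted p = 0.62) did not pass. Nor did SLC16A1 (0.02, adjusted p = 0.93), the lactate transporter of most cells. SLC16A3, the lactate exporter known as a HIF target, had 288, 199 and 228 TPM in radioresistant cells, against 76.1, 107 and 249 TPM in control cells. Control replicate 3 lay among the radioresistant libraries, and the log2 difference of 0.89 (adjusted p = 0.16) was 1.37 (adjusted p = 1.7e-04) without it.

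**Figure D2:**
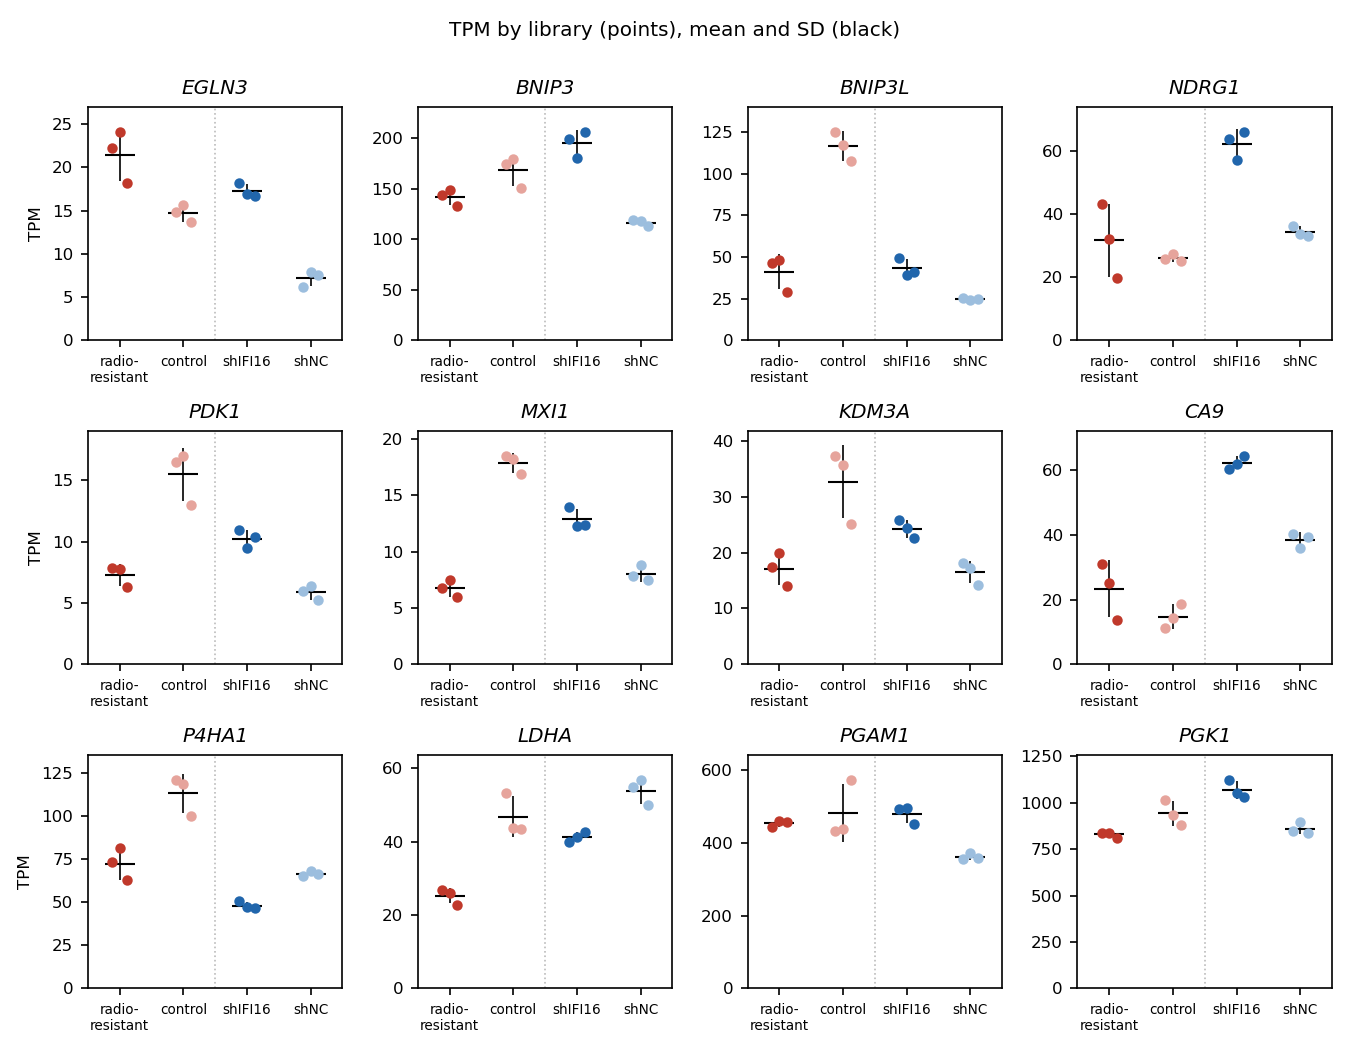
TPM of 12 members in each of the 3 libraries of radioresistant, control, shIFI16 and shNC cells (points) with the mean and SD (black), each axis starting at 0; the dotted line separates the tables, which were normalized separately. BNIP3L, PDK1, MXI1 and KDM3A lie lower in radioresistant than in control cells and higher in shIFI16 than in shNC cells, while P4HA1 and LDHA lie lower in both.

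In the knockdown EGLN3 was the member that passed among the 4 HIF subunits and sensors. It had 18.2, 16.9 and 16.7 TPM in shIFI16 cells, against 6.16, 7.86 and 7.59 TPM in shNC cells. The shIFI16 libraries lay far above the shNC libraries, 2.39-fold in the mean (log2 change 1.16 ± 0.11 SE, adjusted p = 8.4e-07). The transcripts of the alpha subunits did not pass: HIF1A averaged 536 ± 59 TPM in shIFI16 and 517 ± 22 TPM in shNC cells, and EPAS1 averaged 19.5 ± 3.2 TPM in shIFI16 and 18.0 ± 1.5 TPM in shNC cells (SD, n = 3 each). Their log2 differences were 0.05 (adjusted p = 0.66) and 0.10 (adjusted p = 0.53), and both were below 0 without shIFI16 replicate 1. EGLN1 had a log2 difference of 0.20 (adjusted p = 0.22).

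Of the 12 other HIF targets, 8 rose and 2 fell in shIFI16 cells (66.7% and 16.7%, beside 16.6% and 16.3% of all genes). NDRG1 had 63.6, 57.1 and 66.0 TPM in shIFI16 cells, against 36.3, 33.8 and 33.0 TPM in shNC cells. It was 1.81-fold higher in the mean (log2 change 0.84 ± 0.08 SE, adjusted p = 1.2e-06). The mitochondrial clearance receptors rose together. BNIP3L had 49.6, 39.1 and 41.2 TPM in shIFI16 cells, against 25.1, 24.3 and 25 TPM in shNC cells (log2 change 0.77 ± 0.09 SE, adjusted p = 1.3e-05). BNIP3 had 199, 180 and 206 TPM in shIFI16 cells, against 119, 118 and 113 TPM in shNC cells (log2 change 0.74 ± 0.07 SE, adjusted p = 4.7e-07). In both genes each shIFI16 library lay above each shNC library. CA9 had 60.6, 62.1 and 64.4 TPM in shIFI16 cells, against 40.3, 36.0 and 39.4 TPM in shNC cells, with tight groups and a log2 change of 0.68 (adjusted p = 5.7e-06). MXI1 averaged 12.9 ± 0.9 TPM in shIFI16 and 8.02 ± 0.68 TPM in shNC cells (log2 change 0.62, adjusted p = 3.2e-04). KDM3A averaged 24.3 ± 1.6 TPM in shIFI16 and 16.5 ± 2.0 TPM in shNC cells (log2 change 0.53, adjusted p = 9.7e-04).

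Smaller rises were those of ANKRD37 (0.48, adjusted p = 0.017) and ADM (0.31, adjusted p = 0.019). ADM lost its call without shNC replicate 2 (adjusted p = 0.096), and ANKRD37 lost it without shNC replicate 2 (0.091) or shIFI16 replicate 1 (0.059). ANKRD37 also lost it with no low-value filter (0.076). The collagen prolyl hydroxylases went the other way. P4HA1 had 50.7, 47.2 and 46.6 TPM in shIFI16 cells, against 65.2, 68.4 and 66.7 TPM in shNC cells, and fell by 0.46 ± 0.07 (log2 scale and SE, adjusted p = 1.4e-04). P4HA2 had 59.1, 51.3 and 50.4 TPM in shIFI16 cells, against 66.7, 69.0 and 65.2 TPM in shNC cells, and fell by 0.32 (adjusted p = 0.0053). Neither had overlapping groups. VEGFA averaged 76.8 ± 4.5 TPM in shIFI16 and 68.0 ± 0.9 TPM in shNC cells (log2 difference 0.17, adjusted p = 0.071) and CA12 averaged 9.99 ± 0.88 TPM in shIFI16 and 12.1 ± 0.5 TPM in shNC cells (-0.26, adjusted p = 0.067). Neither passed, though VEGFA did with quantile normalization (adjusted p = 0.031), and CA12 did with it (0.023), with median-ratio scaling (0.028) and without shIFI16 replicate 1 (0.033).

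Of the 18 glycolytic enzymes tested, 7 rose and 1 fell after knockdown (38.9% and 5.56%, beside 16.6% and 16.3% of all genes), with a median log2 change of 0.16. The rises were small, at log2 changes of 0.17 to 0.40. PGAM1, which moves the phosphate of phosphoglycerate, had 493, 496 and 450 TPM in shIFI16 cells, against 355, 373 and 357 TPM in shNC cells (log2 change 0.40 ± 0.06 SE, adjusted p = 8.2e-05). PGK1, the first step that yields ATP, had 1123, 1052 and 1031 TPM in shIFI16 cells, against 849, 895 and 840 TPM in shNC cells (log2 change 0.31 ± 0.06 SE, adjusted p = 7.6e-04). Every shIFI16 library lay above every shNC library for both. GPI had 277, 274 and 250.9 TPM in shIFI16 cells, against 221, 218 and 206 TPM in shNC cells (0.32, adjusted p = 0.0010). PFKFB3 had 121, 106 and 101 TPM in shIFI16 cells, against 89.7, 82.3 and 82.7 TPM in shNC cells (0.36, adjusted p = 0.0017). Both groups of GPI and of PFKFB3 were apart. PFKFB4 (0.24, adjusted p = 0.032), ENO1 (0.18, adjusted p = 0.031) and TPI1 (0.17, adjusted p = 0.029) passed only narrowly.

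The narrow calls were lost when libraries were left out. ENO1 lost its call without shIFI16 replicate 1 (adjusted p = 0.095), shIFI16 replicate 2 (0.13) or shNC replicate 3 (0.14). PFKFB4 lost it without shIFI16 replicate 1 (0.10), shIFI16 replicate 2 (0.062), shNC replicate 2 (0.076) or shNC replicate 3 (0.13). TPI1 lost it without shIFI16 replicate 2 (0.11), shNC replicate 1 (0.10), shNC replicate 2 (0.051) or shNC replicate 3 (0.066). Without shIFI16 replicate 2 or without shNC replicate 3, 4 enzymes were higher, beside 1318 and 1402 of all genes in place of 2088. Median-ratio scaling also ended the calls of ENO1 (0.165) and TPI1 (0.166).

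LDHA was the enzyme that fell, with 39.9, 41.2 and 42.7 TPM in shIFI16 cells, against 54.8, 56.8 and 49.9 TPM in shNC cells. The groups did not overlap (log2 change -0.37 ± 0.08 SE, adjusted p = 0.0017). The other enzymes did not pass. Above 0 were HK2 (0.27, adjusted p = 0.085), PFKP (0.17), ENO2 (0.16), LDHB (0.13), PFKM (0.13) and HK1 (0.09). HK2 passed with median-ratio scaling (adjusted p = 0.041) and with quantile normalization (0.019). ALDOA (0.03), PKM (-0.01) and GAPDH (-0.04) lay close to 0, and PFKL was at -0.11. The sign of ALDOA and PKM turned under quantile normalization, GAPDH passed under it (-0.13, adjusted p = 0.049), and PFKP passed without shIFI16 replicate 3 (adjusted p = 0.040) or shNC replicate 1 (0.042). ALDOC was not tested, with 0.51, 0.92 and 0.93 TPM in shIFI16 cells, against 1.54, 1.1 and 0.88 TPM in shNC cells.

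Among the genes around the pathway, PDK1 had 10.9, 9.46 and 10.3 TPM in shIFI16 cells, against 6.0, 6.39 and 5.22 TPM in shNC cells. It was 1.74-fold higher in the mean (log2 change 0.71 ± 0.11 SE, adjusted p = 1.5e-04), without overlap. PDK3 averaged 12.9 ± 1.8 TPM in shIFI16 and 10.7 ± 0.4 TPM in shNC cells (0.23, adjusted p = 0.12). SLC16A1 had 141, 122 and 118 TPM in shIFI16 cells, against 96.0, 99.1 and 88.9 TPM in shNC cells, and rose by 0.42 ± 0.08 (log2 change and SE, adjusted p = 5.5e-04). SLC16A3 averaged 233 ± 5 TPM in shIFI16 and 253 ± 8 TPM in shNC cells (-0.12, adjusted p = 0.12). The glucose transporters SLC2A1 (-0.03, adjusted p = 0.76) and SLC2A3 (-0.12, adjusted p = 0.42) did not pass.

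The comparisons share no libraries, and their calls for the members can be set side by side. Of the 13 members that were lower in radioresistant cells, 6 were higher in shIFI16 cells (PDK1, PFKFB3, BNIP3L, MXI1, KDM3A and ANKRD37) and 2 were lower (LDHA and P4HA1). That is 46.2% higher and 15.4% lower, beside 18.2% higher and 15.0% lower among the 3263 genes tested in both comparisons that were lower in radioresistant cells. Of the 6 members higher in radioresistant cells, GPI, EGLN3 and ADM were also higher in shIFI16 cells and none was lower, beside 18.8% higher and 26.6% lower of all 2051 such genes. ALDOA, EPAS1 and VEGFA, the other members that rose in radioresistant cells, did not pass after knockdown. BNIP3, CA9, NDRG1, PGK1, PGAM1, TPI1, ENO1, PFKFB4 and SLC16A1 were past the threshold only in the knockdown, where they rose; the difference between the comparisons was not tested. In 11 members neither comparison passed, among them HIF1A, EGLN1, GAPDH and both glucose transporters.

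**Figure D3:**
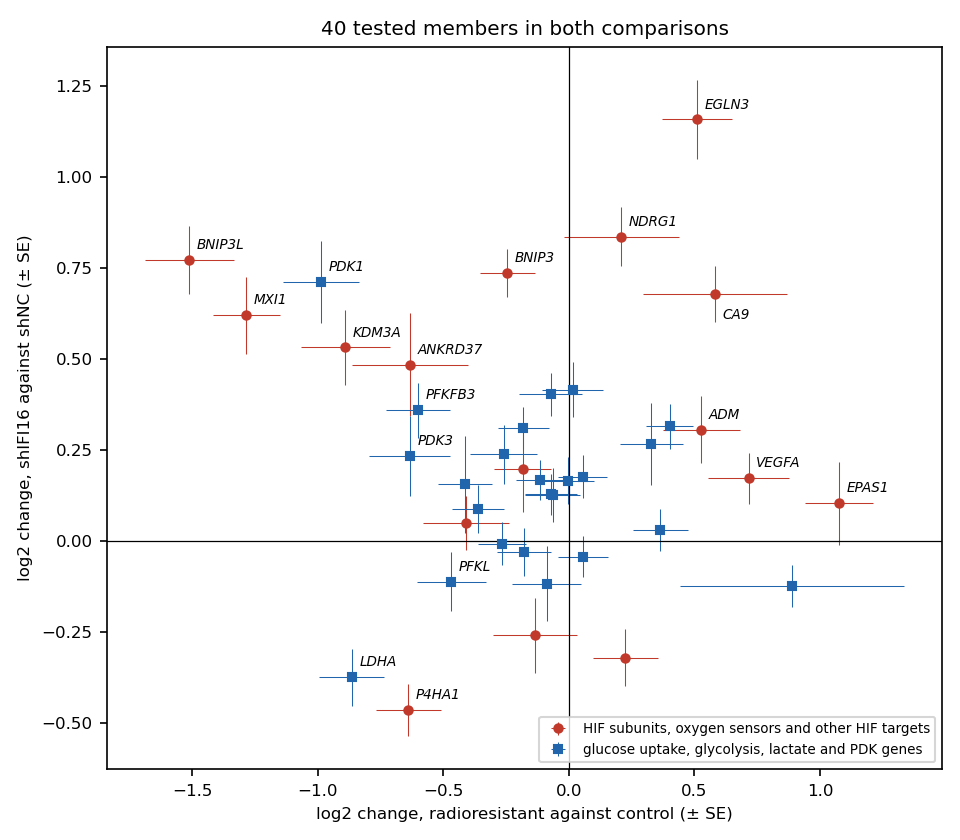
Log2 change of each of the 40 tested members, radioresistant against control on the x axis and shIFI16 against shNC on the y axis, with standard errors; circles are the HIF subunits, sensors and other targets, squares the glucose, glycolysis, lactate and PDK genes. BNIP3L, MXI1, PDK1 and KDM3A lie at the upper left, EGLN3 at the upper right, and LDHA and P4HA1 at the lower left.

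The transcripts of the glycolytic enzymes were also added up. The 19 glycolytic enzymes summed to 23690, 23260 and 23150 TPM in radioresistant cells, against 22950, 23410 and 23760 TPM in control cells. These sums overlapped, at 2.31 to 2.37% of all transcripts in radioresistant and 2.29 to 2.38% in control libraries (two-sided exact permutation test, p = 1.0; the smallest p that 3 against 3 libraries allow is 0.10). In the hairpin groups they summed to 21980, 21820 and 21240 TPM in shIFI16 cells, against 20520, 21420 and 20280 TPM in shNC cells, a log2 ratio of 0.06 (exact permutation p = 0.2). GAPDH alone made up 8502 to 8998 TPM in radioresistant, 8069 to 8674 TPM in control, 7738 to 8003 TPM in shIFI16 and 7957 to 8421 TPM in shNC libraries. Without GAPDH the other 18 enzymes summed to 14580 ± 158 TPM in radioresistant and 14920 ± 144 TPM in control cells, and to 13800 ± 512 TPM in shIFI16 and 12620 ± 356 TPM in shNC cells (SD, n = 3 each). Those log2 ratios were -0.03 and 0.13, each with an exact permutation p of 0.1, the smallest possible. The 16 HIF subunits, sensors and other targets summed to 1124 ± 162 TPM in radioresistant and 1362 ± 187 TPM in control cells, and to 1221 ± 83 TPM in shIFI16 and 1042 ± 28 TPM in shNC cells (exact permutation p = 0.3 and 0.1).

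The share that each paralogue held of its step was compared within libraries. LDHB, the subunit that favours lactate use, made up 97.8 ± 0.3% of LDHA plus LDHB in radioresistant and 96.2 ± 0.2% in control cells, and 97.2 ± 0.1% in shIFI16 and 96.0 ± 0.3% in shNC cells (SD, n = 3 each, as for the shares that follow). LDHA had no more than 57 TPM in any library, beside at least 1052 TPM of LDHB. HK2 held 5.87 ± 0.43% of the HK1 plus HK2 transcripts in radioresistant and 3.65 ± 0.40% in control cells, and PFKP held 63.2 ± 1.1% of the phosphofructokinase transcripts in radioresistant and 58.1 ± 1.75% in control cells. ENO2 held 1.53 ± 0.13% of ENO1 plus ENO2 in radioresistant and 2.11 ± 0.09% in control cells. PDK3 held 62.2 ± 1.1% of PDK1 plus PDK3 in radioresistant and 55.4 ± 2.0% in control cells, whereas it held 55.5 ± 3.1% in shIFI16 and 64.6 ± 3.1% in shNC cells. SLC16A3 held 64.8 ± 1.9% of SLC16A1 plus SLC16A3 in shIFI16 and 72.8 ± 1.3% in shNC cells, and PFKP held 63.3 ± 0.7% in shIFI16 and 60.7 ± 0.2% in shNC cells. Groups did not overlap for the shares just given, and the exact permutation p was 0.1 for each, the smallest possible, or 0.129 (radioresistant) and 0.225 (knockdown) adjusted over 9 shares. The share of SLC16A3 in radioresistant and control cells, and those of HK2, ENO2, EPAS1 and ALDOC in the hairpin groups, overlapped, as did the share of SLC2A3 in both comparisons. LDHA, LDHB, GAPDH, ENO1, PGK1, PGAM1, TPI1, PKM, ALDOA and BNIP3 have near-identical pseudogene copies, and how reads were split among copies is not given in the sources used here, so their levels are uncertain.

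**Figure D4:**
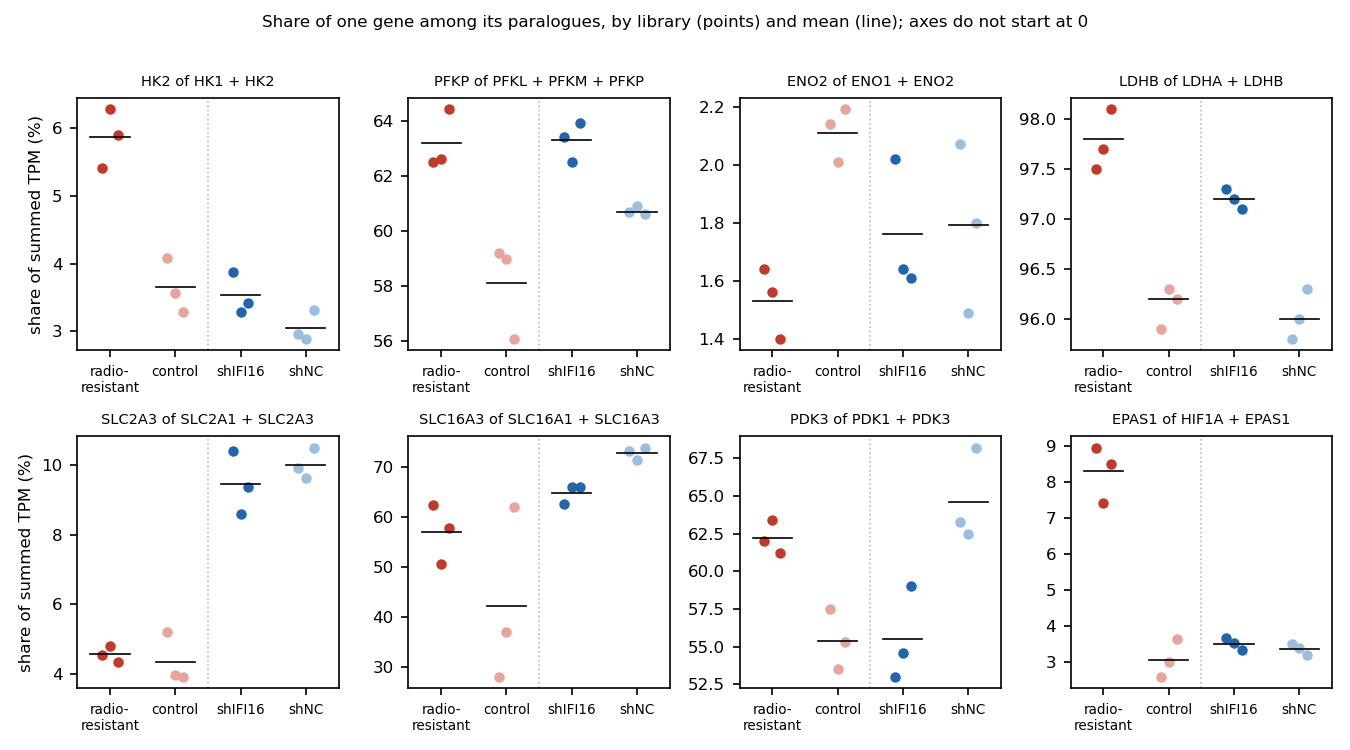
Share of 1 paralogue in the summed TPM of its set, in percent, for each library of radioresistant, control, shIFI16 and shNC cells. The share of EPAS1 lies at 7.41 to 8.94% in radioresistant and 2.58 to 3.62% in control libraries, and the share of PDK3 is higher in radioresistant than in control and lower in shIFI16 than in shNC libraries.

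Other genes of these pathways, taken from lists of each pathway, were read from the same fits. Of 35 tested further hypoxia targets, 7 rose and 13 fell in radioresistant cells (median log2 change -0.31), and 14 rose and 5 fell after knockdown (median 0.16). These are 20% higher and 37.1% lower, beside 16.9% and 27.0% of all genes, in radioresistant cells, and 40% higher and 14.3% lower, beside 16.6% and 16.3% of all genes, after knockdown. STC2, a secreted glycoprotein, had 11.2, 9.97 and 14.2 TPM in radioresistant cells, against 1.97, 2.74 and 3.5 TPM in control cells (log2 change 1.78). ANGPTL4, an inhibitor of lipoprotein lipase (1.85), and GPRC5A (1.40) rose with it; ANGPTL4 was under 1 TPM in all control libraries and so could be tested only through the radioresistant ones. After knockdown STC2 rose (0.82, adjusted p = 2.7e-05), whereas ANGPTL4 (-1.16, adjusted p = 3.0e-06) and GPRC5A (-1.11, adjusted p = 8.2e-06) fell. STC1, the relative of STC2, had 55.8, 57.9 and 36.9 TPM in radioresistant cells, against 145, 147 and 113 TPM in control cells (-1.43, adjusted p = 1.2e-04), and 83.8, 73.0 and 73.6 TPM in shIFI16 cells, against 35.7, 34.0 and 32.2 TPM in shNC cells (1.15, adjusted p = 2.9e-08). It was thus low in radioresistant and high in shIFI16 cells, each with no overlap. DDIT4, an inhibitor of mTOR signalling, had 78.6, 75.2 and 92.3 TPM in shIFI16 cells, against 32.4, 29.8 and 32.5 TPM in shNC cells (1.35, adjusted p = 1.3e-08). ZNF395 (1.07) and VLDLR, a lipoprotein receptor (0.88), rose as well.

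Of 13 tested HIF regulators, 1 rose (7.69%) and 3 fell (23.1%) in radioresistant cells, beside 16.9% and 27.0% of all genes. After knockdown 2 rose (15.4%) and 1 fell (7.69%), beside 16.6% and 16.3% of all genes. ARNT2, a dimer partner of HIF alpha subunits, had 3.77, 3.96 and 3.13 TPM in radioresistant cells, against 10.2, 10.8 and 9.81 TPM in control cells (-1.29). It had 4.44, 3.28 and 3.36 TPM in shIFI16 cells, against 1.05, 1.032 and 1.06 TPM in shNC cells (1.19). The groups were apart in both tables. VHL, which marks hydroxylated HIF alpha subunits for destruction, fell in radioresistant cells (-0.62), as did ARNT (-0.44), while EP300 rose (0.36). CITED2, a competitor of HIF for its coactivators, fell after knockdown (-0.76), and HSP90AA1 rose (0.48).

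Of 15 further glycolysis and gluconeogenesis genes tested in the first comparison, 1 rose (6.67%) and 5 fell (33.3%). Of 14 tested in the second, 4 rose and 4 fell (28.6% each). Among all genes 16.9% rose and 27.0% fell in the first, and 16.6% rose and 16.3% fell in the second. The transporter SLC2A12 (-1.58), BPGM (-0.97), ENO3 (-0.82) and SLC2A10 (-0.78) fell in radioresistant cells. SLC2A10 (1.61) and SLC2A12 (0.72) rose in shIFI16 cells, and SLC2A6 (-1.01) and PCK2 (-0.50) fell there. SLC2A10 was under 1 TPM in all shNC libraries and so could be tested there only through the shIFI16 ones. In glycogen metabolism, 6 of 13 tested genes fell and none rose in radioresistant cells, beside 27.0% lower and 16.9% higher among all genes; among them were GYS1, glycogen synthase (-0.71), PHKB (-1.09) and GBE1 (-0.52). After knockdown 4 of 13 rose and none fell, beside 16.6% higher and 16.3% lower among all genes; among them were GYS1 (0.32), GAA (0.41), PPP1R3C (0.46) and PGM1 (0.22).

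In the pentose phosphate pathway, which branches from glycolysis, RPIA rose (0.73) and TKT fell (-0.50) in radioresistant cells, the only calls among 7 genes. That is 14.3% each way, beside 16.9% higher and 27.0% lower among all genes. After knockdown 4 of 7 rose, among them TKT (0.53) and RPIA (0.72), and PGLS fell (-0.43). That is 57.1% higher and 14.3% lower, beside 16.6% and 16.3% of all genes. Of 12 genes of pyruvate entry, PDP1 rose (0.56) and PC, pyruvate carboxylase (-1.23), and PDK2 (-0.41) fell in radioresistant cells. These are 8.33% higher and 16.7% lower, beside 16.9% and 27.0% of all genes. After knockdown PDHX (0.52), PDHA1 (0.29), DLAT (0.26) and PDHB (0.21), each a part of the pyruvate dehydrogenase complex, rose and none of the 12 fell. DLD, another part of that complex, did not pass (-0.03, adjusted p = 0.77). The share that rose was 33.3%, beside 16.6% higher and 16.3% lower among all genes.

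The ATAC-seq summits gave values without replicates. In the radioresistant library 11 of the 36 members with an annotated start (30.6%) had a summit within 1 kb of a start, beside 38.1% of the 9791 expressed genes with an entry. In the control library 1 of 36 (2.78%) had one, beside 6.99% of genes. The lists hold 12877 summits in the radioresistant and 2454 in the control library, so the counts move with how much was called. The member with a summit in both was LDHB, at 21 bases before its start in the radioresistant and 351 bases after it in the control library. The summit with the highest score, a -log10 q-value of 10.3, lay 240 bases before a start of LDHA, a gene that was lower in radioresistant cells. Summits also lay 159 bases before a start of PDK1, within the window printed above, 5 bases before that of HIF1A, 369 bases before that of PGK1, 60 bases after that of P4HA1 and 216 bases after that of SLC2A1. The remaining summits were those of ANKRD37, GAPDH, HK1 and PKM, at 315 to 936 bases from a start with scores of 2.79 to 5.01. HIF1A had the lowest score of the 11, 2.23. Of the 6 members that rose in radioresistant cells, VEGFA had no promoter entry and the other 5 had no summit in this window.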

How the data were processed

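RNA-seq was done on 12 libraries and ATAC-seq on 2, with groups taken from the sample titles. The tables' column codes were matched to groups by inference (the ATAC-seq prefixes for control and radioresistant, the letters for shNC, the remaining code for shIFI16); low IFI16 goes with the shIFI16 reading, and the control and radioresistant codes have no such check. The deposited expression values were TPM, since each column summed to 1000000. Per the submitters' processing notes, Trim Galore 0.6.6, TopHat, Cufflinks 2.2.1, featureCounts and the build hg38 were used, with Bowtie2 2.2.5, SAMtools 1.10 and MACS2 2.1.4 for ATAC-seq; which of them made the TPM is not given in the sources used here, nor are the annotation and strand setting. The authors deposited MACS2 summits with a -log10 q-value as score, 1 list per library.

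Within a comparison, a gene needed 1 TPM or more in 3 or more of the 6 libraries, and was then tested with limma 3.58.1 (R 4.3.3) on log2(TPM + 1), with trend and robust moderation, two-sided, Benjamini-Hochberg adjustment over all genes tested and a threshold of 0.05. Each table was fitted alone, as they were normalized separately. Fold changes on this scale understate changes of low genes. Left out were 28 entries whose names had become dates (0.115 to 0.190% of values). Members were named in order of absolute log2 change among those past the threshold; of each further list, up to 4 genes by smallest p, though some list members are not reported here. Genes of lists, and the members, were chosen with earlier results of these data known; 1 list symbol was replaced by its current form after the tables were read. Sums and shares used two-sided exact permutation tests over libraries. Alternatives covered the pseudocount, the filter, scaling, the variance model, a replicate block, left-out libraries, the summit window and the summit score. TPM keeps no depth, so no counting interval could be given.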

Additional observations from a re-analysis of the deposited data

How the results depend on the processing

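No called member changed sign under an alternative. Values that did not pass changed sign in 10 members of the first comparison and 5 of the knockdown under at least 1 alternative, in none of them past the threshold. Of the calls, 12 of the 19 called members in radioresistant cells and 16 of the 21 after knockdown held under all 13 alternatives. Median-ratio scaling left 3 enzymes lower in radioresistant cells and put the log2 ratio of the enzyme sum at 0.115; the share of calls that were higher there was 38.5% in the fit reported, 49.6% under median ratios and 47.1% after quantile normalization. After knockdown, quantile normalization gave 5 members and 2 enzymes lower, beside 2374 of all genes. With limma without trend and robust moderation, 5 enzymes changed and 4 were higher, beside 3505 and 1688 of all genes. The fit reported had 4140 genes changed, 2088 higher and 2052 lower. Without GAPDH the enzyme sums had log2 ratios of -0.034 (radioresistant) and 0.129 (knockdown). With summits scoring at least 10, 1 member was left in the radioresistant and 0 in the control ATAC-seq library. The cause of these shifts was not tested.

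Leaving out 1 library at a time in the first comparison gave 3 to 7 members higher and 2 to 5 HIF genes higher. Of the enzymes, 4 to 8 changed, 1 to 2 were higher and 3 to 6 lower. Of all genes, 3875 to 7138 changed, 1494 to 2743 were higher and 2237 to 4395 lower. In the knockdown, leaving out 1 library gave 5 to 9 enzymes changed and 4 to 8 higher. Of all genes, 2888 to 4086 then changed and 1318 to 2310 were higher.

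The fits reported did not pair libraries by replicate number. Deviations of same-numbered libraries correlated at -0.377, 0.245 and 0.081 (radioresistant and control) and 0.215, 0.088 and 0.028 (shIFI16 and shNC). Different-numbered libraries correlated at -0.429 to 0.394 (radioresistant and control) and -0.231 to 0.148 (shIFI16 and shNC). Whether same-numbered hairpin libraries share a replicate effect was not tested. With the number as a replicate block, 5572 genes changed in the first comparison (5762 without it) and 5610 in the knockdown (4140 without it), where 28 members changed, 23 higher and 5 lower (21, 18 and 3 without it). In the knockdown the block added calls for HK2, PFKP, LDHB, PDK3, SLC16A3, CA12 and VEGFA (adjusted p 0.010 to 0.043). In the first comparison it added HIF1A (adjusted p = 0.026) and ended that of PKM (0.091).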
